A study of Mus musculus with 2 samples.

Results

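Semaphorins, plexins, Eph receptors and ephrins are the surface and secreted cues that steer axons and migrating cells, and they were read here in the glia, vessels and meninges of the postnatal spinal cord. The genes were chosen by symbol: every gene named Sema, Epha, Ephb, Efna or Efnb followed by a number, and every gene named Plxn. This gave 54 of the 32285 genes in the count tables, of which 20 were semaphorins, 9 plexins, 9 EphA receptors, 5 EphB receptors, 5 ephrin-A and 3 ephrin-B genes, with 3 RNAs antisense to Plxna4. All 54 were matched by identifier to the GENCODE M21 annotation of mouse GRCm38, the assembly that mm10 names, and 51 were protein-coding.

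Cells came from whole spinal cords of FVB mice at postnatal day 4, in a mouse model of spinal muscular atrophy known as the Taiwanese severe model. The library labelled SMA held mice of the genotype mSmn-/-, hSMN22tg/0, and the library labelled Con held mice of the genotype mSmn+/-, hSMN22tg/0, so that both carried the human transgene and the controls kept 1 mouse Smn allele. Each library was a pool of 3 littermates, and with 1 library per group no difference between them could be tested. Intervals below are 95% counting intervals and say nothing of the spread between animals.

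Semaphorins are mostly repellent ligands, either secreted or held in the membrane, and plexins are their receptors, with neuropilins as partners for the secreted kind. Ephrins are ligands fixed to the cell surface, the A kind by a lipid anchor and the B kind by a membrane span, and Eph receptors are the tyrosine kinases that bind them on contact. In the embryonic cord the same families set the midline barrier for crossing axons, and in glia and vessels they are known for guiding precursors and for keeping arteries apart from veins.

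After cell filters, and with SMA barcodes that were also listed for Con left out, 6787 SMA and 8917 Con cells remained, with a median of 6109 and 6229 unique molecular identifiers (UMIs, counted molecules) per cell. The barcode lists of the libraries had 8163 entries in common, and 6509 of the 13296 SMA barcodes that passed the limits were among them. On the Con side 6567 of the 10256 barcodes that passed were among them, and these were not left out for it. Cells were clustered without the 54 genes and named "-like" from marker genes. The comparison took 12 classes of 50 cells or more on both sides, among them an unnamed cluster led by Pdyn. Another unnamed cluster, led by Cryba4 with 141 SMA and 286 Con cells, had a median of 1954 UMIs and was left out of the comparison for its low depth, a choice made after the clusters were seen. Counts of a class were summed and are given per 1000000 UMIs of that class (CPM). Since 3′ counts are not scaled to gene length, a level is compared between classes or libraries for 1 gene at a time. Smn1 stood at 48.1 CPM in SMA and 43.8 CPM in Con, and since the tables do not show which part of the transcript was read, this does not check the genotypes. The pools also differed in sex-linked RNA: Xist reached 1.51 CPM in SMA and 528 CPM in Con, and the Y-linked genes 153 and 63.1 CPM, a fact that touches the X-linked members Plxnb3, Plxna3 and Efnb1. Erythroid-like cells held 29.1 (SMA) and 50.4 CPM (Con) of the whole set, the lowest sum of any compared class.

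The guidance genes were divided among cell classes in nearly the same way in both libraries. Of the 48 members with at least 50 UMIs over the compared classes, 41 had their highest level in the same class in SMA and in Con. The same share over all genes is not given, so this count does not set the members apart from other genes. Some of the 41 were near ties: for Epha4, Ephb2, Sema3a and Efna4 the lead over the next class had intervals that hold 0 in both libraries. The other 7 were Sema5a, Sema3c, Plxna1, Plxna2, Plxnb3, Epha2 and Epha10. For Sema5a and Plxnb3 the leading classes were COP-like (committed oligodendrocyte precursor) and oligodendrocyte-like cells at similar levels, and the others had under 100 UMIs in their leading class. Below, a gene's leading class and next class are those with the highest and the next highest mean of both libraries. Of the members whose next class is given, another class lay above it in 1 of the libraries for Sema4b, Sema4c, Sema4d, Sema6a, Sema6d, Sema3b, Efna1, Epha3 and Epha7. The 6 members under that minimum of 50 UMIs were Sema3f, Epha1, Epha6 and the antisense RNAs Plxna4os1, Plxna4os2 and Plxna4os3, the last with no UMI in any kept cell. The set as a whole took 2043 CPM in SMA and 2020 CPM in Con of the oligodendrocyte-like class, and 2022 and 1798 CPM of a cluster led by Pdyn, against 418 and 426 CPM in microglia-like cells.

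**Figure D1:**
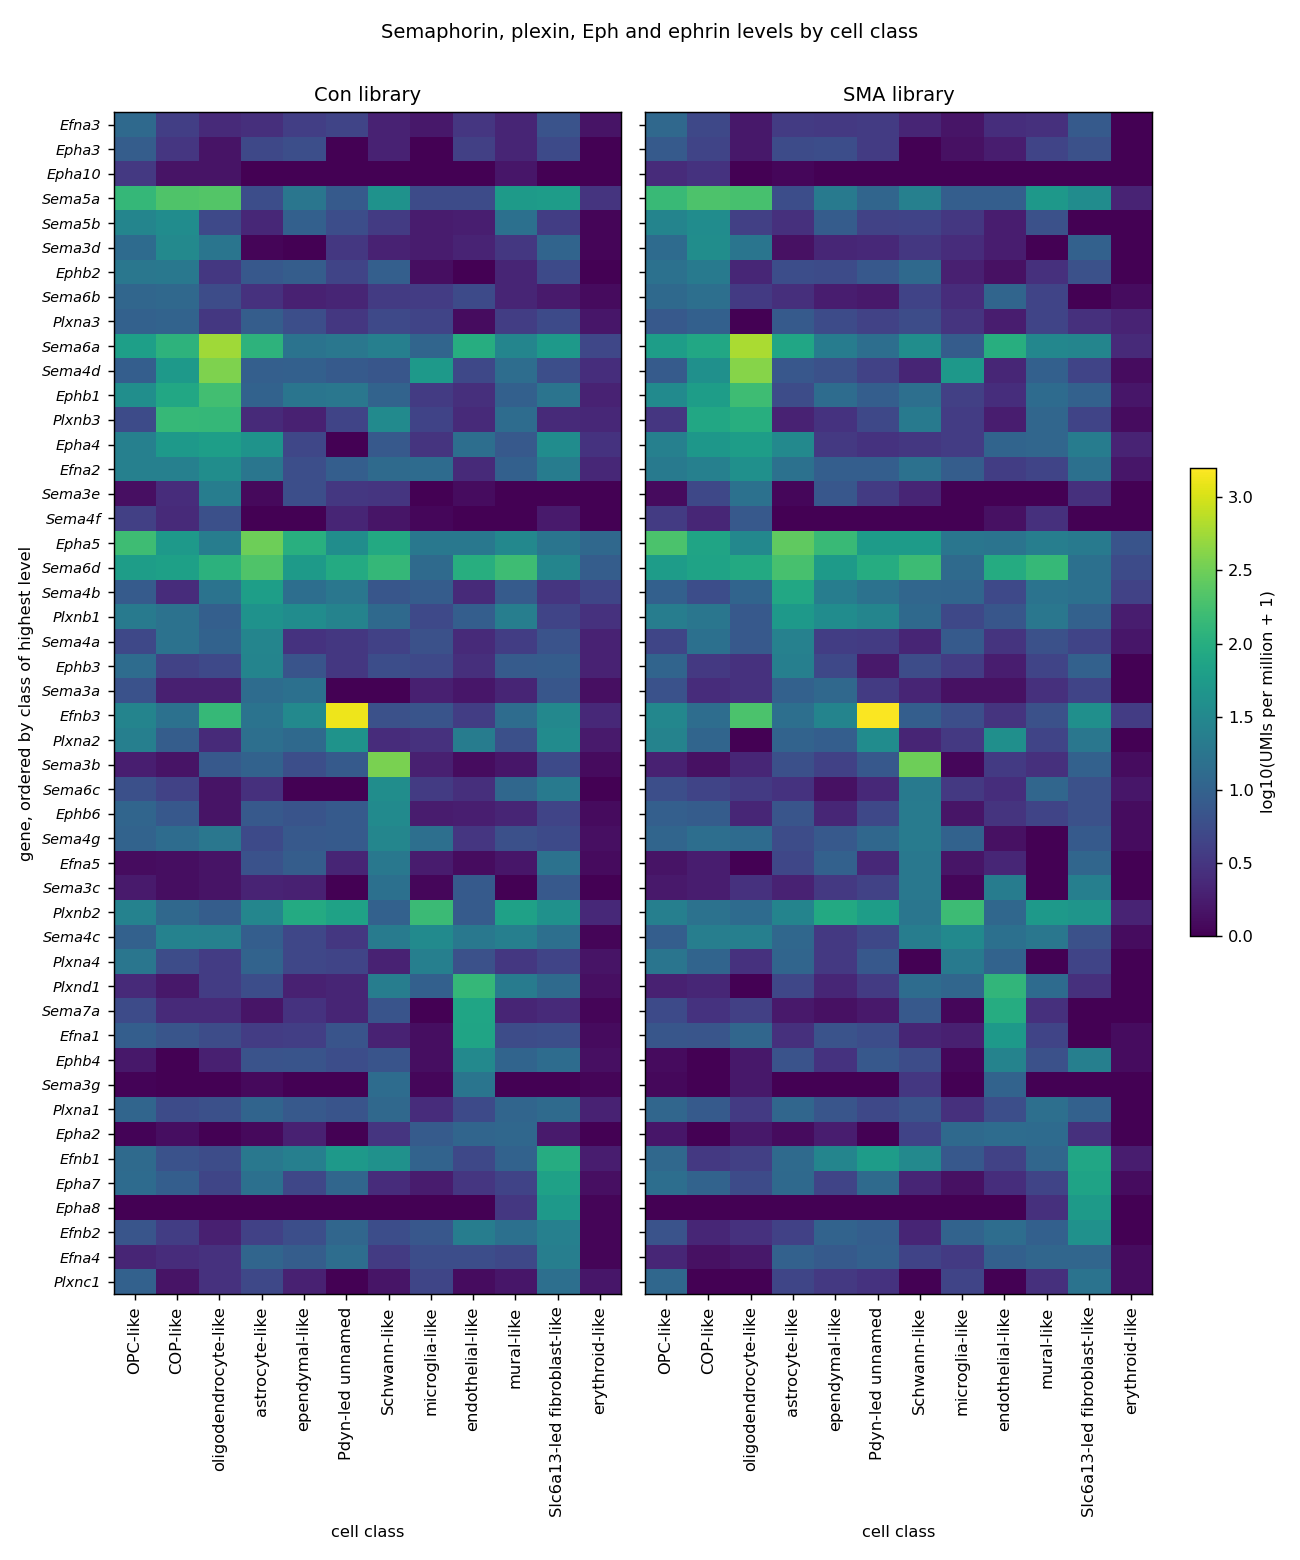
Colour gives log10(CPM + 1) of each of the 48 members (rows, ordered by class of highest level) in the 12 compared classes (columns) of the Con and SMA libraries, and should be read along a row. The same bright cells recur in both panels, among them Efnb3 in the Pdyn-led cluster, Sema6a and Sema4d in oligodendrocyte-like cells and Sema3b in Schwann-like cells.

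Efnb3 had its highest level in the cluster led by Pdyn. It encodes ephrin-B3, the membrane-spanning ligand known as the floor plate barrier that stops EphA4-bearing axons from crossing, and the gene lies on chromosome 11 (69554092 to 69560205, minus strand). There it reached 1511 CPM in SMA (2285 UMIs, interval 1449 to 1574) and 1298 CPM in Con (1113 UMIs, interval 1223 to 1377). This cluster of 238 SMA and 132 Con cells was left unnamed because it carried markers of both floor plate and ependymal cells, with Foxa1 at 53.6 and 40.8 CPM and Shh, the defining floor plate signal, at 4.63 and 1.17 CPM, and Nkx2-9 at 0 in both. Ciliated ependymal-like cells held Efnb3 at 26.6 CPM (SMA) and 30.7 CPM (Con), far below the Pdyn-led cluster in both libraries.

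Oligodendrocyte-like cells came next, with Efnb3 at 193 CPM in SMA and 140 CPM in Con, which was 2.97 and 3.21 lower on the log2 scale than the Pdyn-led cluster. The gene was at 12.9 and 14.8 CPM in COP-like cells and at 2.74 and 1.36 CPM in erythroid-like cells. In the remaining classes it lay between 2.04 and 38.5 CPM. The 43 SMA and 26 Con neuron-like cells, too few to be compared, were led by Pkd2l1, a channel of neurons that contact the cerebrospinal fluid, and held Efnb3 at 141 and 140 CPM.

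Oligodendrocyte-like cells carried the highest levels of Sema6a and Sema4d. Sema6a, a transmembrane ligand of A-type plexins, stood at 617 CPM in SMA (1001 UMIs) and 551 CPM in Con (1203 UMIs), against 82.7 and 116 CPM in COP-like cells, the next class. Sema4d, a transmembrane ligand of plexin-B1 long known on oligodendrocytes, stood at 409.7 and 383 CPM, against 49.9 and 52.8 CPM in microglia-like cells. On the log2 scale Sema6a stood 2.90 (SMA) and 2.25 (Con) above COP-like cells, and Sema4d 3.04 and 2.86 above microglia-like cells. In SMA endothelial-like cells held Sema6a above the level of COP-like cells, on 245 UMIs, and in Con COP-like cells held slightly more Sema4d than microglia-like cells, at 53.1 CPM.

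Receptors and ephrins shared the class with them. Ephb1, a receptor of B ephrins, reached 161 CPM in SMA and 169 CPM in Con, against 58.8 and 81.2 CPM in COP-like cells. Epha4, the receptor through which ephrin-B3 acts on axons, reached 59.8 and 61.3 CPM, and was close behind in COP-like cells at 48.6 and 51.0 CPM. Efna2, a lipid-anchored ligand, stood at 39.4 and 36.2 CPM, against 23.9 and 24.0 CPM in COP-like cells. Most of both came from a cluster of the class led by Adamts4, with 93 of 97 and 125 of 134 UMIs of Epha4. For Efna2 it held 60 of 64 and 68 of 79 UMIs. The other cluster, led by Mobp, was 65.2% of the class's cells in SMA and 80.8% in Con. It held Epha4 at 8.89 and 10.4 CPM and Efna2 at 8.89 and 12.7 CPM, below COP-like cells.

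COP-like cells led for another group. Sema5a, a semaphorin with thrombospondin repeats, was at 204 CPM in SMA and 209.8 CPM in Con, level with oligodendrocyte-like cells at 185 and 222 CPM, and the order of these classes differed between the libraries. Its relative Sema5b was at 35.3 and 34.5 CPM, against 26.5 and 27.2 CPM in oligodendrocyte precursor (OPC)-like cells. Sema3d, a secreted semaphorin, was at 36.5 and 31.0 CPM, against 16.6 and 16.5 CPM in oligodendrocyte-like cells, and Ephb2, another receptor of B ephrins, was at 19.6 and 18.4 CPM, against 14.5 and 17.5 CPM in OPC-like cells. OPC-like cells led for Efna3 (10.9 and 11.5 CPM, which was 0.64 and 1.04 on the log2 scale above the Slc6a13-led fibroblast-like class) and for Epha3 (7.03 and 7.75 CPM, against 4.76 and 4.80 CPM in ependymal-like cells).

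Within the lineage the levels of several genes were followed from cluster to cluster, and are given by their values since clusters of 1 library are no replicates. Clusters were set in order by hand from genes among their leading ones: the largest OPC-like cluster (Pcdh15), 2 COP-like clusters (Gpr17, then Enpp6) and 2 oligodendrocyte-like clusters (Adamts4, then Mobp). Epha5, a receptor of A ephrins on chromosome 5 (84054761 to 84417382, minus strand), went from 233 CPM in SMA and 208 CPM in Con in the first, to 107 and 96.2 CPM in the second, and to 13.7 and 14.9 CPM in the third. The step from the Gpr17-led to the Enpp6-led cluster was 7.81-fold downward in SMA and 6.44-fold downward in Con.

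Plxnb3, the receptor of Sema5a, had the opposite order. It was low in the Pcdh15-led OPC-like cluster (4.3 and 4.4 CPM), then 40.5 and 46.9 CPM, then 150.0 and 209.8 CPM in the Enpp6-led cluster. The first of these steps was 9.50-fold in SMA and 10.6-fold in Con. Sema5a itself changed little over the same clusters, from 181 and 164 CPM in the Pcdh15-led cluster to 232 and 236 CPM in the Enpp6-led cluster, so the ligand was also high in the cluster where its receptor was low.

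Sema4d, Sema6a and Efnb3 were highest of the 5 clusters in the Adamts4-led cluster. Sema4d went from 76.1 and 79.8 CPM in the Enpp6-led cluster to 540.3 and 567 CPM, a 7.10-fold step in SMA and a 7.11-fold step in Con. Efnb3 went from 8 to 276 UMIs in SMA (8.5 to 235 CPM, log2 ratio 4.80, interval 3.80 to 6.02) and from 58 to 241 UMIs in Con (16.4 to 183 CPM, log2 ratio 3.48, interval 3.06 to 3.92). Sema6a was 4.91-fold and 4.66-fold higher, at 809.6 and 839 CPM. From the Pcdh15-led to the Gpr17-led cluster Sema6a was lower (62.0 and 80.8 to 34.3 and 37.2 CPM). Efnb3 was lower as well (31.5 and 31.7 to 15.6 and 12.8 CPM), while Sema4d was higher (8.53 and 7.64 to 17.5 and 20.1 CPM). Ephb1 went from 40.0 and 50.9 CPM in the Pcdh15-led cluster down to 25.6 and 27.4 CPM in the Gpr17-led cluster. It was then at 115 and 125 CPM in the Enpp6-led and 212 and 248 CPM in the Adamts4-led cluster.

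The step before, from the Gpr17-led to the Enpp6-led cluster, held changes of several genes at once. Sema6a was 4.80-fold higher in SMA (55 to 156 UMIs) and 4.84-fold higher in Con (107 to 638 UMIs), as large a step as its next one. Sema4d was 4.36-fold and 3.96-fold higher, Ephb1 4.50-fold and 4.55-fold and Plxnb3 3.70-fold and 4.47-fold, at the same step at which Epha5 was lower.

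Sema4d, Sema6a and Ephb1 were lower again in the Mobp-led cluster, at 68.9 and 102 CPM for Sema4d, 113 and 111 CPM for Sema6a and 26.7 and 48.6 CPM for Ephb1. The drop was shared by Epha4, Sema5a, Efna2, Plxnb3, Efnb3 and Sema6d, which were 2.43-fold to 9.10-fold lower than in the Adamts4-led cluster. Those cells were also shallow, with a median of 1612 UMIs against 13103 in the Adamts4-led cluster, and the part of depth in the drop was not tested. Epha5 went the other way there, from 17.9 and 8.33 CPM to 62.2 and 42.8 CPM on 28 and 37 UMIs, and the part of background RNA in this was not tested.

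**Figure D2:**
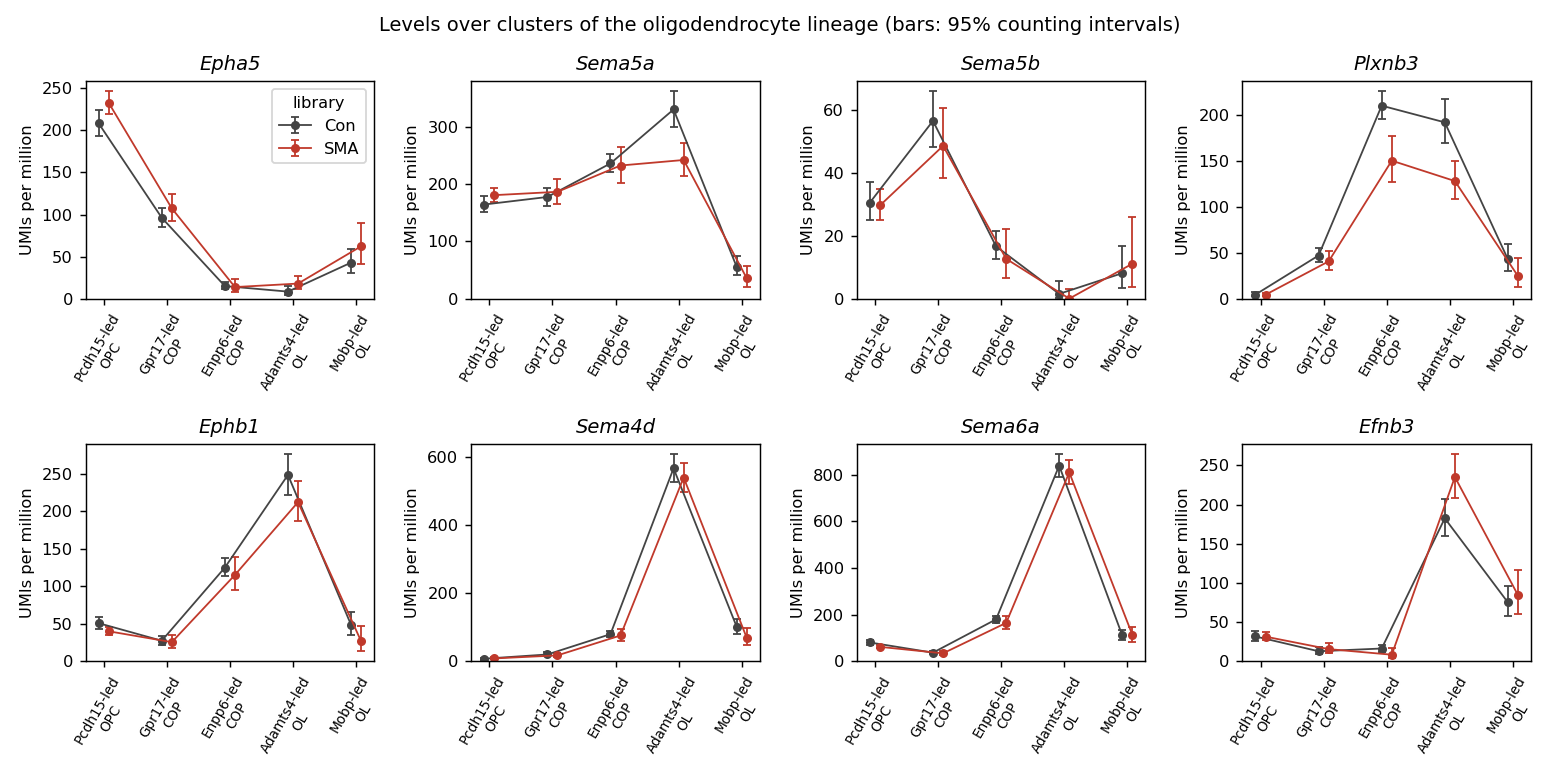
Each panel gives the level of 1 gene (CPM, linear axis from 0) in 5 clusters of the oligodendrocyte lineage in the Con (grey) and SMA (red) libraries, with 95% counting intervals as bars and lines joining the points of a library. In the Enpp6-led cluster Epha5 is at 13.7 (SMA) and 14.9 CPM (Con) and Plxnb3 at 150.0 and 209.8 CPM, and Sema4d, Sema6a and Efnb3 peak in the Adamts4-led cluster.

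The promoters of the lineage genes were searched because Sox10, the factor that drives oligodendrocyte genes, binds short SOX letters. The letters ACAAAG and ACAATG were searched on both strands in windows around each gene's start from the RefSeq promoter table (GRCm38.p6). Of 32544 distinct windows, 28.4% held at least 1 match. The window of Plxnb3 held 3 matches and that of Ephb1 held 1, and of the 3 windows of Sema4d 1 held a match. The windows of Epha5, Sema5a and Sema5b held 0. Those of Sema6a and Efnb3 were not analysed here. The windows of Plxnb3 and Ephb1, whose only listed starts held a match, are shown. Matches are in capitals, on either strand, and they describe letters only, with no evidence of binding.
Plxnb3 (chrX:73756853-73757152, plus strand): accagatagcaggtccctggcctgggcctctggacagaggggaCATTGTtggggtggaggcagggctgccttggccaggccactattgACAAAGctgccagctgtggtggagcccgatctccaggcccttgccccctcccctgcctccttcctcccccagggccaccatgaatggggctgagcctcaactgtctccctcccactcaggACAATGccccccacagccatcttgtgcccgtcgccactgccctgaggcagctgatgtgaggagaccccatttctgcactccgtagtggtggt
Ephb1 (chr9:102354644-102354943, minus strand): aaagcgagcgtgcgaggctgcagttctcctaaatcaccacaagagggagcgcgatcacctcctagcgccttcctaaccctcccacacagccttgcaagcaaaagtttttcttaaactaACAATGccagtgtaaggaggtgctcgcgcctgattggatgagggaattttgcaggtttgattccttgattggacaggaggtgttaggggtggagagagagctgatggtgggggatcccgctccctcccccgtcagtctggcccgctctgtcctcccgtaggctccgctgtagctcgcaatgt

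Astrocyte-like cells led for Epha5, Sema6d, Sema4b, Plxnb1, Sema4a and Ephb3. Epha5 stood at 260.3 CPM in SMA (2033 UMIs) and 312 CPM in Con (3133 UMIs), against 194 and 160.4 CPM in OPC-like cells. Sema6d, a transmembrane ligand of plexin-A1, stood at 185 and 208 CPM, and was broad, with 138 and 160.3 CPM in mural-like cells and 157 and 132 CPM in Schwann-like cells. Its lowest levels were 4.39 and 7.85 CPM in erythroid-like cells and 11.9 and 11.8 CPM in microglia-like cells.

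Sema4b, a transmembrane semaphorin, was at 80.8 CPM in SMA and 60.9 CPM in Con, against 21.8 and 13.4 CPM in ependymal-like cells. Plxnb1, the receptor of Sema4d, was at 51.3 and 41.6 CPM, against 35.3 and 34.6 CPM in ependymal-like cells. Sema4a was at 24.8 and 27.3 CPM, against 14.1 and 14.9 CPM in COP-like cells, and Ephb3 was at 23.2 and 26.8 CPM, against 9.86 and 12.5 CPM in OPC-like cells. The receptor Plxnb1 and its ligand Sema4d thus had their highest levels in different classes in both libraries.

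Astrocyte-like cells were then split by position. Cells with a UMI of a dorsal factor (Pax3, Pax7, Zic1, Zic2, Zic4, Zic5 or Msx1) and none of a ventral one (Nkx6-1, Nkx6-2, Nkx2-2, Nkx2-9, Foxa1 or Foxa2) were called dorsal, and the reverse ventral, giving 395 dorsal and 286 ventral cells in SMA and 378 and 433 in Con. Sema3a, the secreted repellent that ventral astrocytes are known to supply to motor neurons, had 2 UMIs in dorsal and 33 in ventral cells of SMA (0.80 and 16.5 CPM), and 12 and 45 UMIs in Con (5.03 and 13.8 CPM). Its log2 ratio of dorsal over ventral was -4.35 in SMA (interval -7.46 to -2.39) and -1.45 in Con (interval -2.51 to -0.51), and the intervals overlap.

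Of the Eph receptors, Epha5 and Ephb1 were lower dorsally in both libraries, with intervals that leave out 0. Epha5 had 107 CPM in dorsal and 349 CPM in ventral cells of SMA, and 188 and 377 CPM in Con, so the log2 ratio was -1.70 in SMA (interval -1.91 to -1.49) and -1.01 in Con (interval -1.17 to -0.85). Ephb1 had log2 ratios of -2.16 and -2.13 on 5 against 18 and 7 against 42 UMIs. Ephb3 leaned to the dorsal side, with 27.4 against 21.9 CPM in SMA (log2 ratio 0.32, interval -0.25 to 0.90) and 37.3 against 20.5 CPM in Con (log2 ratio 0.86, interval 0.39 to 1.34). Sema6d differed by 0.20 and 0.14 on the log2 scale, with intervals that hold 0 in both libraries.

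**Figure D3:**
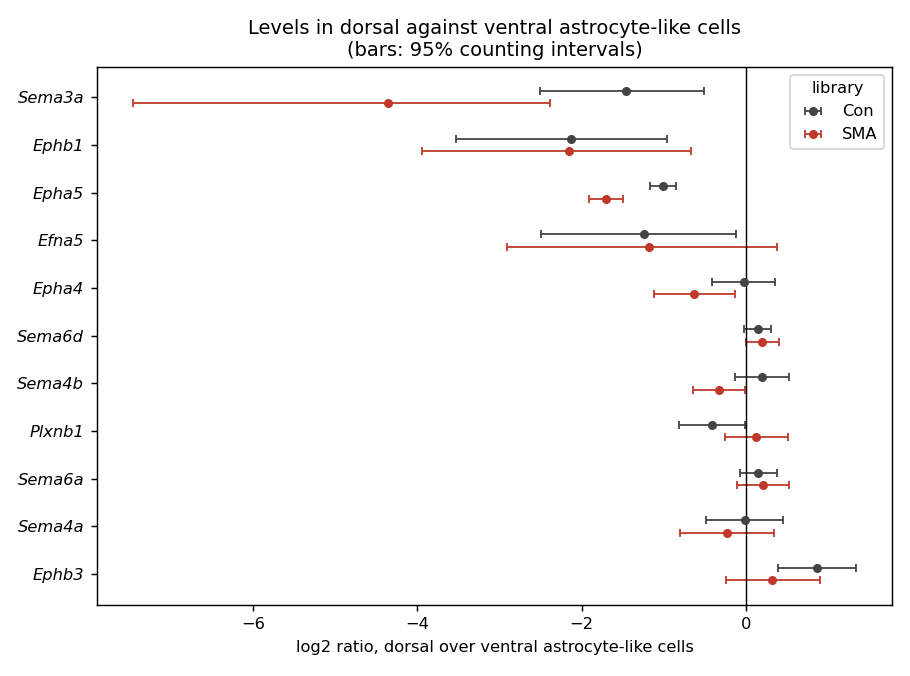
Points give the log2 ratio of CPM in dorsal over ventral astrocyte-like cells for 11 members in the Con (grey) and SMA (red) libraries, with 95% counting intervals as bars and 0 as no difference. Sema3a, Ephb1 and Epha5 lie below 0 in both libraries, and Ephb3 lies above 0.

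Endothelial-like cells led for Plxnd1, Sema7a, Efna1, Ephb4 and Sema3g. Plxnd1, the endothelial receptor of Sema3e, was at 126 CPM in SMA (308 UMIs) and 134 CPM in Con (482 UMIs), against 12.5 and 21.8 CPM in Schwann-like cells. Sema7a, a lipid-anchored semaphorin, was at 95.1 and 74.6 CPM, against 6.82 and 5.71 CPM in Schwann-like cells. Efna1 was at 50.6 and 73.4 CPM, against 10.5 and 4.58 CPM in oligodendrocyte-like cells.

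Ephb4 and Efnb2 are known as the receptor of veins and the ligand of arteries. Ephb4 was at 25.7 CPM in SMA and 31.2 CPM in Con, against 22.7 and 12.5 CPM in the Slc6a13-led fibroblast-like class. When the class was split by arterial markers (Bmx, Gja5, Gja4, Gkn3, Mgp and Sox17) and venous markers (Nr2f2, Slc38a5, Ackr1, Vwf and Il1r1), 25 arterial and 85 venous cells were found in SMA, and 47 and 79 in Con. Sema3g, a secreted semaphorin of arteries, had 20 UMIs in arterial and 2 in venous cells of Con (74.1 against 3.88 CPM, log2 ratio 4.26, interval 2.21 to 7.40), but 1 and 0 UMIs in SMA. Efnb2 had 5 and 1 UMIs in SMA (log2 ratio 4.16, interval 1.01 to 9.73) and 9 and 5 in Con (log2 ratio 1.78, interval 0.05 to 3.71), on the arterial side in both. Ephb4 had 3 and 12 UMIs in SMA and 8 and 15 in Con, for log2 ratios of arterial over venous of -0.16 and 0.03 with intervals that hold 0.

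Schwann-like cells were marked by Sema3b, a secreted semaphorin on chromosome 9 (107597674 to 107609229, minus strand). It stood at 308 CPM in SMA (271 UMIs, interval 272 to 347) and 357 CPM in Con (687 UMIs, interval 331 to 385), and astrocyte-like cells, next by the mean, held 5.12 and 9.05 CPM. In SMA the Slc6a13-led fibroblast-like class lay above them at 8.74 CPM, on 5 UMIs. The class also led for Sema6c, Sema4g, Ephb6 and Efna5, each with 16 to 18 UMIs in SMA and 35 to 70 in Con.

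Microglia-like cells led for receptors and for Sema4c. Plxnb2, a receptor of Sema4c, was at 155 CPM in SMA (1226 UMIs) and 150.0 CPM in Con (980 UMIs), against 87.3 and 89.3 CPM in ependymal-like cells. Sema4c itself was at 32.0 and 33.2 CPM, against 22.4 and 25.5 CPM in COP-like cells. Plxna4 was at 19.2 and 23.0 CPM, against 16.6 and 16.8 CPM in OPC-like cells. One microglia-like cluster of 104 SMA and 81 Con cells with a median of 10636 UMIs held Epha5 at 72.0 and 79.2 CPM, against 7.4 and 8.1 CPM in the main one, and whether it holds doublets was not tested.

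The Slc6a13-led fibroblast-like class, of 65 SMA and 170 Con cells, led for Epha8, Epha7, Efnb1, Efnb2, Efna4 and Plxnc1. Each had 6 to 44 UMIs in that class in SMA, and these genes, like Sema6c, Sema4g, Ephb6 and Efna5, are named here after their values were seen. Epha8 was nearly limited to it, with 31 of 34 UMIs in SMA and 76 of 81 in Con, or 54.2 and 52.7 CPM, against 1.74 and 2.27 CPM in mural-like cells. Epha7 was at 71.7 and 66.6 CPM, against 11.3 and 14.3 CPM in astrocyte-like cells. Efnb1, which is X-linked, was at 77.0 and 95.8 CPM, against 57.5 and 51.3 CPM in the Pdyn-led cluster. Sema3a was highest in ependymal-like cells, Sema3e and Sema4f were highest in oligodendrocyte-like cells, and Sema6b and Plxna3 in COP-like cells. A second fibroblast-like cluster, led by Mfap5, had 431 cells in Con and 2 in SMA, and held Sema3c at 94.7 CPM in Con (128 UMIs), above the 6.94 CPM of the Slc6a13-led class in Con.

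Genes of the ligand and receptor pairs that the study examined were followed over the 12 compared classes. Plxna1, a receptor of Sema6d, was at most 13.9 CPM in SMA and 11.8 CPM in Con, and at 10.5 and 9.95 CPM in OPC-like cells and 10.4 and 9.85 CPM in astrocyte-like cells, while the few neuron-like cells held it at 20.6 and 45.5 CPM on 8 and 12 UMIs. Of the compared classes, Sema5a was above 100 CPM only in OPC-like, COP-like and oligodendrocyte-like cells and was at 4.74 and 4.78 CPM in astrocyte-like cells. Of the compared classes outside the oligodendrocyte lineage none reached 20 CPM of Ephb1, and the neuron-like cells held it at 38.6 and 34.1 CPM. The Pdyn-led cluster, with the highest Efnb3, held it at 7.93 and 17.5 CPM on 12 and 15 UMIs.

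Between the libraries, few levels differed by much. Of 648 pairs of a member and a class, 192 had at least 50 UMIs in the sum of both libraries. None of the 192 was 2-fold or more lower in SMA, against 1.35% of all 89819 gene and class pairs, and 2 were 2-fold or more higher, against 1.08% of all pairs. The median log2 ratio of SMA over Con was -0.08 over the member pairs and -0.01 over all pairs, and 117 of the 192 lay below 0 (60.9%, against 50.9% of all pairs). The counting interval left out 0 for 48 pairs, or 25%, against 25.1% of all pairs, so this share did not set the members apart. Of the 192 pairs 32 lay below 0 by their interval (16.7%, against 12.3% of all pairs) and 16 above (8.33%, against 12.7%). With the shared barcodes kept, 0 of 211 pairs were 2-fold or more lower and 1 was higher.

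**Figure D4:**
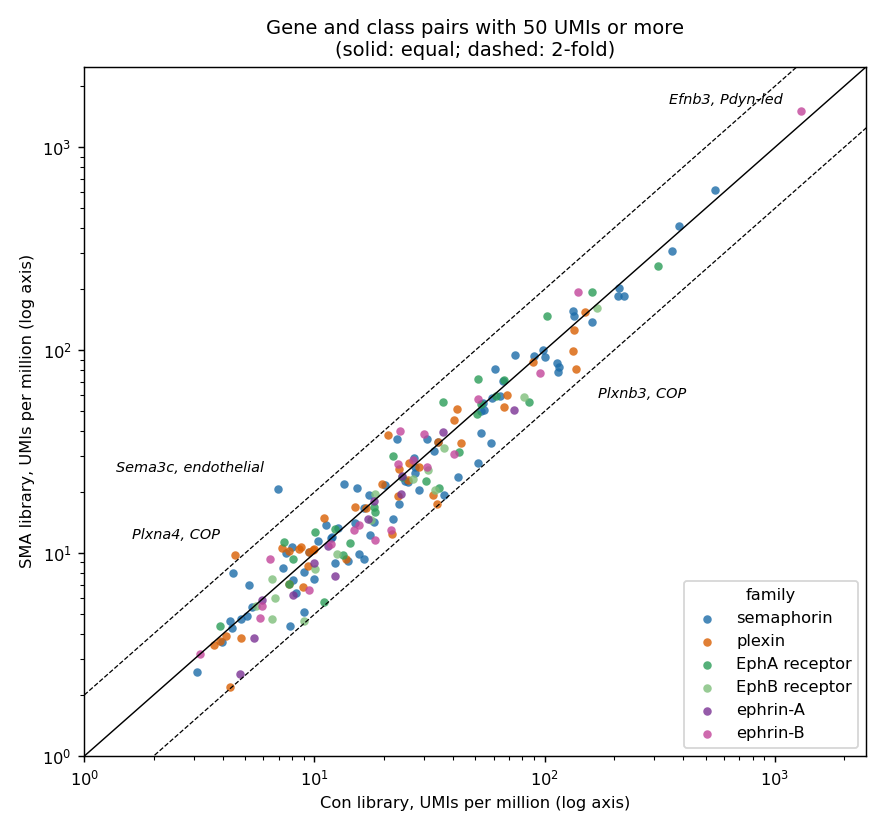
Each point is 1 of the 192 pairs of a member and a class, with its level in the Con library on the x axis and in the SMA library on the y axis (CPM, both log axes), coloured by gene family. The solid line marks equal levels and the dashed lines 2-fold, and 190 of the points lie between the dashed lines.

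Both pairs past 2-fold rested on fewer than 100 UMIs and are named after their values were seen. Sema3c, a secreted semaphorin, was at 20.8 CPM in SMA (51 UMIs) and 6.95 CPM in Con (25 UMIs) in endothelial-like cells, a log2 ratio of 1.58 (interval 0.86 to 2.33), and 1.55% of all genes tested in that class were 2-fold or more higher. Plxna4 was at 9.80 CPM in SMA (25 UMIs) and 4.51 CPM in Con (29 UMIs) in COP-like cells, a log2 ratio of 1.12 (interval 0.29 to 1.94), and it was past 2-fold under 6 of 11 other settings. That class was made up differently in the libraries, as given below. Plxna4 was at 13.7 (SMA) and 9.03 CPM (Con) in its Gpr17-led cluster, on 22 and 26 UMIs. In its Enpp6-led cluster it had 3 UMIs in each library (3.17 and 0.85 CPM).

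Of the pairs with at least 300 UMIs, Plxnb3 in COP-like cells had the widest gap. It was at 81.2 CPM in SMA (207 UMIs) and 137 CPM in Con (879 UMIs), a log2 ratio of -0.75 (interval -0.98 to -0.53). It was at 99.2 and 133 CPM in oligodendrocyte-like cells (log2 ratio -0.42, but 0.24 on 74 and 70 UMIs with cells of up to 20% mitochondrial UMIs) and at 2.18 and 4.32 CPM in OPC-like cells (log2 ratio -0.98, interval -1.72 to -0.28). The gene is on the X chromosome. With Con cells limited to those with a Y-linked UMI and no Xist the ratio in COP-like cells was -0.93 (interval -1.19 to -0.67), and the part of the sexes of the pools in it was not tested. Within the Gpr17-led cluster, with 230 of the 323 SMA cells of the class, it was -0.21 (interval -0.66 to 0.23) on 65 and 135 UMIs. Within the Enpp6-led cluster it was -0.48 (interval -0.75 to -0.22), and within the Adamts4-led cluster of oligodendrocyte-like cells it was -0.58 (interval -0.89 to -0.29).

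COP-like cells were made up differently in the libraries, and the part of this in the ratios of the class was not tested beyond a change of weights. The Enpp6-led cluster was 28.8% of COP-like cells in SMA (93 of 323, exact binomial interval 23.9 to 34.1%) and 46.8% in Con (347 of 741, interval 43.2 to 50.5%). Sema6a was lower in SMA in the class (82.7 against 116 CPM, log2 ratio -0.49), and the ratio was -0.12 with the clusters given the same weights in both libraries. Ephb1 went in the same way from -0.47 to -0.11, Sema4d from -0.44 to -0.10 and Epha5, higher in SMA, from 0.50 to 0.13. Plxnb3 went from -0.75 to -0.41.

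In astrocyte-like cells 25 of 33 members lay below 0 (75.8%, against 60.2% of all genes tested in the class), with a median of -0.17 against -0.06 over all genes of the class. Sema6a was at 77.7 CPM in SMA (607 UMIs) and 115 CPM in Con (1152 UMIs), a log2 ratio of -0.56 (interval -0.70 to -0.42). Epha5 was lower here (log2 ratio -0.26, interval -0.34 to -0.18) and higher in OPC-like cells (0.27, interval 0.18 to 0.36) and ependymal-like cells (0.52, interval 0.20 to 0.84). Ephb1 and Efnb1 were lower as well, by log2 ratios of -0.97 (36 and 91 UMIs) and -0.65 (91 and 184 UMIs), the latter -0.29 with an interval that holds 0 against the Con cells with a Y-linked UMI and no Xist. The class was made up differently by position, with 286 ventral to 395 dorsal cells in SMA and 433 to 378 in Con. Within the dorsal cells Epha5 was at 107 CPM in SMA and 188 CPM in Con, and within the ventral cells at 349 and 377 CPM. Ephb1 was at 2.01 and 2.93 CPM in the dorsal and at 8.98 and 12.9 CPM in the ventral cells, on 5 to 42 UMIs. Sema4b (0.41, interval 0.25 to 0.57) and Plxnb1 (0.30, interval 0.10 to 0.51) were higher.

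Vessels and Schwann cells gave a mixed set. In endothelial-like cells Plxna2, a receptor of Sema6a, was at 38.4 CPM in SMA (94 UMIs) and 20.9 CPM in Con (75 UMIs), a log2 ratio of 0.88 (interval 0.43 to 1.34), while Efna1 was lower by a log2 ratio of -0.54 (interval -0.86 to -0.22) and Efnb2 by -0.71 (interval -1.36 to -0.10). The class had 25 arterial to 85 venous cells in SMA and 47 to 79 in Con. Efnb2 was at 32.6 (SMA) and 33.4 CPM (Con) in arterial and 1.82 and 9.70 CPM in venous cells, on 1 to 9 UMIs. Efna1 was at 91.2 and 63.0 CPM in arterial and 50.8 and 67.9 CPM in venous cells, on 14 to 35 UMIs. The part of the make-up of the class in these ratios was not tested. Schwann-like cells, of which SMA had 91 and Con 209, had 10 of 13 members below 0 (76.9%, against 49.2% of all genes tested in the class) with a median of -0.48, against 0.01 over all genes of the class. Sema3b, the best counted of them, had a log2 ratio of -0.21 (interval -0.42 to -0.01). Of the rest of the 10, only Sema6c, Epha5 and Sema5a had intervals that leave out 0, and the X-linked Plxnb3 and Efnb1 did not. Sema6d, next to Sema3b by UMIs, was at 0.24 (interval -0.07 to 0.55). In the Pdyn-led cluster Efnb3 was higher in SMA by 0.22 (interval 0.11 to 0.32), and in oligodendrocyte-like cells by 0.47 (interval 0.23 to 0.70). The Mobp-led cluster was 65.2% of oligodendrocyte-like cells in SMA and 80.8% in Con, and with equal cluster weights the ratio of Efnb3 was 0.26 and that of Plxnb3 in the same class went from -0.42 to -0.67. Within the Adamts4-led and Mobp-led clusters the ratio of Efnb3 was 0.37 (interval 0.11 to 0.62) and 0.17 (interval -0.45 to 0.77).

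Genes of the same pathways were read in the same way, beside the shares of 1.35% lower and 1.08% higher over all pairs. Of the semaphorin co-receptors (14 genes, among them Nrp1 and Nrp2) 1 of 56 tested pairs was 2-fold or more lower in SMA and 1 higher, with a median log2 ratio of -0.04, and of the plexin signal mediators (22 genes) 1 of 169 was lower and 1 higher, with a median of -0.06. Mical2, an oxidase that takes actin filaments apart below plexins, was the largest of these, with 91 UMIs in SMA and 23 in Con in astrocyte-like cells (11.6 and 2.29 CPM, log2 ratio 2.35, interval 1.68 to 3.08). Gipc1, an adaptor of plexins, was lower in erythroid-like cells (log2 ratio -1.28), a class whose median over all genes was -0.26.

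Of the Eph and ephrin signal mediators 3 of 140 pairs were lower and 1 higher, with a median of 0.02. They included Rgs3 in COP-like cells (log2 ratio -1.02), Spsb1 in endothelial-like cells (-1.19) and Adam10, the protease that sheds ephrins, in mural-like cells (1.03). Of the Slit, Robo, netrin and Rgm genes 4 of 79 were lower and 2 higher, with a median of -0.002. Rgma, named after its values were seen, made up 3 of the 4, with log2 ratios of -2.28 in endothelial-like, -1.37 in oligodendrocyte-like and -1.05 in erythroid-like cells on 57 to 67 UMIs. In COP-like cells the netrin Ntn1 was at 25.5 CPM in SMA and 12.6 CPM in Con (log2 ratio 1.02) and Ntn3 at 6.67 and 15.1 CPM (log2 ratio -1.18, interval -2.02 to -0.43).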

How the data were processed

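The labels give 1 SMA and 1 Con library of whole spinal cord, made with the 10x Genomics 3′ kit (version 3). The deposited values are UMI counts per gene and barcode, which the authors made with Cell Ranger against mm10 (the matrix headers name 4.0.0, per the file headers, and the submitters' processing notes also name Seurat 3.2.2). Barcodes with 200 to 4000 genes and under 10% mitochondrial UMIs were kept, SMA barcodes listed also for Con were left out, and a cluster with a median of over 30% ribosomal UMIs (0 SMA and 1339 Con cells) was removed. Total counts in the tables were 85872075 and 97894084 UMIs, and kept cells held 45630633 and 59378671. No doublet caller was run.

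Cells were clustered on 2000 variable genes, without the members and the pathway lists, with 30 principal components, 20 neighbours and Louvain clustering at resolution 1 (igraph 0.11.9, scikit-learn 1.9.0). Classes were named from fixed marker lists. These choices followed after the clusters were seen: fibroblast-like clusters were kept apart by Mfap5, a cluster with floor plate and ependymal markers was left unnamed, while the Slc6a13-led cluster, with fibroblast and leptomeningeal markers, kept the fibroblast name, and an unnamed cluster of low depth led by Cryba4 was not compared. Counts were summed per class and library. Intervals are exact Poisson for levels, exact conditional binomial for ratios and exact binomial for shares (SciPy 1.17.1), and cover counting error only. The ratio step was run on Poisson counts simulated from the pooled profile of each class. Such counts hold no spread between cells or animals, so this checks the calculation only.

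With 1 library per group there is no test. Members are named if they had at least 50 UMIs in each library in their class of highest level, with the pairs past 2-fold on at least 100 UMIs (there were none), the genes of the study's pairs and the astrocyte and endothelial sets. Other members given with values were named after their values were seen. The members and lists were chosen with earlier results of these data known. Alternatives were the shared barcodes, mitochondrial limit, resolution, depth, weighting, scaling, UMI minimum and Con cells with a Y-linked UMI, and equal cluster weights, which were added after seeing the data.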

Additional observations from a re-analysis of the deposited data

How the results depend on the processing

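No paired analysis was possible because each group was 1 library. The number of members with the same class of highest level was 36 to 43 of 47 to 49 under the 9 alternatives that could change it (41 of 48 as reported), and the median log2 ratio stayed below 0 under all 14. Of the pairs 2-fold or more lower in SMA (0 as reported), there was 1 with cells of at least 5000 UMIs, without haemoglobin and mitochondrial genes in the scaling, with centring on the median gene and with TMM factors, 2 with equal cluster weights, 4 with equal weight per cell, 5 with Con cells that held a Y-linked UMI and no Xist, 10 at a minimum of 20 UMIs and 45 with 1 UMI in each library. Of the pairs 2-fold or more higher (2 as reported), there was 1 with the shared barcodes kept, with the mitochondrial limit of 20%, at resolution 0.5, at resolution 2 and with equal cluster weights, 0 at a minimum of 200 UMIs, 4 with the Con cells that held a Y-linked UMI, 10 at a minimum of 20 UMIs and 49 with 1 UMI in each library. With fewer UMIs asked of a pair more pairs were read (294 at 20, 489 at 1, 77 at 200). The ratio of Sema3c in endothelial-like cells stayed between 1.30 and 1.71 and that of Plxna4 in COP-like cells between 0.66 and 1.46. Directions turned for Efna2 in OPC-like cells with the Con cells that held a Y-linked UMI (0.094), for Sema5a in oligodendrocyte-like cells at resolution 2 (0.14), for Plxnb3 in oligodendrocyte-like cells at the mitochondrial limit of 20% (0.24) and for Sema6a in oligodendrocyte-like cells with cells of at least 5000 UMIs (-0.040), with the Con cells that held a Y-linked UMI (-0.28) and with equal cluster weights (-0.026), against 0.16 as reported. The cause was not tested. Depth limits pairs of under 50 UMIs, which entered these counts only under the lower minimums.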
